A study of Arabidopsis thaliana with 18 samples.

Results

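The nuclear genes for the 2 photosystems and their light-harvesting antennae were examined in Arabidopsis thaliana seedlings exposed to high ambient temperature. They are 42 loci of the 33655 rows of the count table, chosen by locus identifier and by subunit name. The antenna genes comprise 6 LHCA genes, which serve photosystem I, and 14 LHCB genes, which serve photosystem II. The core genes comprise 10 PSB genes for nuclear-encoded subunits of photosystem II and 12 PSA genes for those of photosystem I. Photosystem II splits water in the thylakoid membrane and photosystem I reduces ferredoxin, and each is surrounded by chlorophyll a/b-binding antenna proteins that collect light and pass the energy to the reaction centre. The antenna proteins and many small subunits are encoded in the nucleus by small gene families and imported into the chloroplast, whereas the reaction-centre proteins themselves are encoded in the chloroplast. Transcription of the antenna genes in seedlings is known to respond to light, to the circadian clock and to signals from the chloroplast.

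Whole seedlings of 3 genotypes were used, namely the wild type Col-0, the hec1hec2 double mutant and pifQ, a quadruple mutant of PIF1, PIF3, PIF4 and PIF5, the last 2 lines being named as in the labels and in the Col-0 background. After stratification in the dark they grew on sucrose-free MS medium in white light at 22°C for 5 days by the labels (the paper states a day more), and then spent 24 hours under continuous white light at either 22°C or 28°C. Each of the 6 groups had 3 libraries of 3′ Tag-Seq, a method that counts reads from the 3′ ends of transcripts, so that a level does not scale with transcript length. The paper calls them biological replicates, and which plants went into each is not given in the sources used here, so p-values measure the spread between these libraries. Transcripts of whole seedlings were pooled, so fewer green cells and less RNA per green cell cannot be told apart.

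Sequencing depth, as the sum of deposited counts, lay between 3631558 and 6285632 per library (median 4599322). All 42 genes passed the filter on low counts, and a single gene held between 39 and 85796 counts in a library. Their summed counts were between 11.9% and 20.2% of a library. HEC1 had 2691 to 3308 counts in the libraries labelled hec1hec2 and 33 to 68 in those of Col-0, which goes against the label, whereas HEC2 had 0 to 6 and 3 to 14 counts. In pifQ, PIF3 had 1 to 6 counts against 56 to 83 in Col-0 and PIF5 had 3 to 12 against 170 to 553, while PIF1 and PIF4 were not lower than in Col-0, with 66 to 97 against 42 to 71 and 60 to 523 against 59 to 403. A 3′ tag outside the mutated part of a gene does not check a label. The second library of pifQ at 22°C stood apart, with 41.2% of its counts on chromosome 1 and 10.1% on chromosome 5, where the other 17 libraries had 29.1% to 30.1% and 19.3% to 20.6%. Its levels of the 17 photosystem and antenna genes on chromosome 1 were 1.23 to 1.88 times the mean of the other 2 libraries of the group, and those of the 4 genes on chromosome 5 were 0.517 to 0.980 times that mean. The 8 genes on chromosome 2, among them LHB1B2 (1.33) and LHB1B1 (1.35), were at 0.931 to 1.47 times that mean with a median of 1.37, while the 13 on chromosomes 3 and 4 were at 0.929 to 1.08 times. Total counts of changed genes and ratios of class sums that changed without this library are given both ways. Other values are given both ways only where stated.

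The upstream sequences of 4 genes are shown because their transcripts behaved differently under the same treatment. LHB1B2 and LHCA4 had the highest log2 fold changes of their classes in Col-0, CAB1 stayed level, and LHCB4.3 had the lowest. LHB1B2 and CAB1 both encode LHCB1, the most abundant protein of the main antenna of photosystem II. The 250 bases before each gene start are written 5′ to 3′ on the strand of the gene, from the RefSeq annotation of the TAIR10.1 assembly, and were matched to the count table by locus identifier only. The windows are chr2:14523569-14523818 on the minus strand for LHB1B2, chr1:10477635-10477884 on the plus strand for CAB1, chr3:17495034-17495283 on the minus strand for LHCA4, and chr2:16745378-16745627 on the plus strand for LHCB4.3. Capitals mark matches to the 4 motifs searched.
LHB1B2: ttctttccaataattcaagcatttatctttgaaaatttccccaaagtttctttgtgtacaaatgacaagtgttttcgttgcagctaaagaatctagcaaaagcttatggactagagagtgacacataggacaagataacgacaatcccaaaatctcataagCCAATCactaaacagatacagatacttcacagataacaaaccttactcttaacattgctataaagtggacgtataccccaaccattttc
CAB1: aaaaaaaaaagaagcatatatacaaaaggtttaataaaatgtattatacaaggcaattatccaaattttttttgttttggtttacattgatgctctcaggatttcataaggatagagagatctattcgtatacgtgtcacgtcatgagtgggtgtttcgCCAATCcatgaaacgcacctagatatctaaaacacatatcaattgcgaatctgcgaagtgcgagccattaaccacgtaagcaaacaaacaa
LHCA4: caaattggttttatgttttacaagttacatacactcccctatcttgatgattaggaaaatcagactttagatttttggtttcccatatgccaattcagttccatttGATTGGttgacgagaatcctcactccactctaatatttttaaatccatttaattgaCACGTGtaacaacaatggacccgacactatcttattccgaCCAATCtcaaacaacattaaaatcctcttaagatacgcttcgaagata
LHCB4.3: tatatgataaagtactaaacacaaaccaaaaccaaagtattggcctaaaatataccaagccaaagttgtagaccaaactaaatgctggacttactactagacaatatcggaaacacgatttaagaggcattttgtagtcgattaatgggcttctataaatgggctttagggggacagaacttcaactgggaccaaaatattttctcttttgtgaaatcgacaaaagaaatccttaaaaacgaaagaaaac

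Each motif was searched on both strands, and no motif contains another. They were the G-box CACGTG, the PBE-box CACATG, the I-box GATAAG and the hexamer CCAATC, which contains the letters of the CCAAT box. CCAATC was present in the windows of 3 of 6 LHCA genes (50.0%), 7 of 14 LHCB genes (50.0%), 1 of 10 PSB genes (10.0%) and 0 of 12 PSA genes. It was found in 10.2% of the windows of all 27443 protein-coding genes. The G-box occurred in 8 of the 42 windows (19.0%), against 6.49% of all protein-coding genes. The I-box occurred in 9 of 42 (21.4%, against 12.3%) and the PBE-box in 4 of 42 (9.52%, against 11.1%). The hexamer lay 89 bases before the start of LHB1B2 and 91 bases before that of CAB1. LHCA4 held it 144 and 48 bases before its start, with a G-box at 88 bases, and LHCB4.3 held none of the 4 motifs. A match is a description of letters and not of a bound site.

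The first comparison asks how 24 hours at 28°C, against 22°C, altered the transcripts of these genes in the wild type. In Col-0, 25 of the 42 genes changed, 23 of them upwards and 2 downwards. Antenna genes made up most of the list: 5 of 6 LHCA and 11 of 14 LHCB genes changed, against 3 of 10 PSB and 6 of 12 PSA genes. The median log2 fold change was 0.52 over the LHCA genes, 0.58 over the LHCB genes, 0.04 over the PSB genes and 0.32 over the PSA genes, beside 0.04 over all genes tested. A gene was taken as changed when the quasi-likelihood test of edgeR gave a false discovery rate (FDR) of 0.05 or less over 18078 genes. By that rule 26% of all genes tested changed in Col-0, 13.2% upwards and 12.8% downwards. A change of at least 2-fold was also required in the study, and 7 of the 42 genes reached it, 6 upwards and 1 downwards, beside 7.94% of all genes (3.86% upwards and 4.09% downwards).

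**Figure D1:**
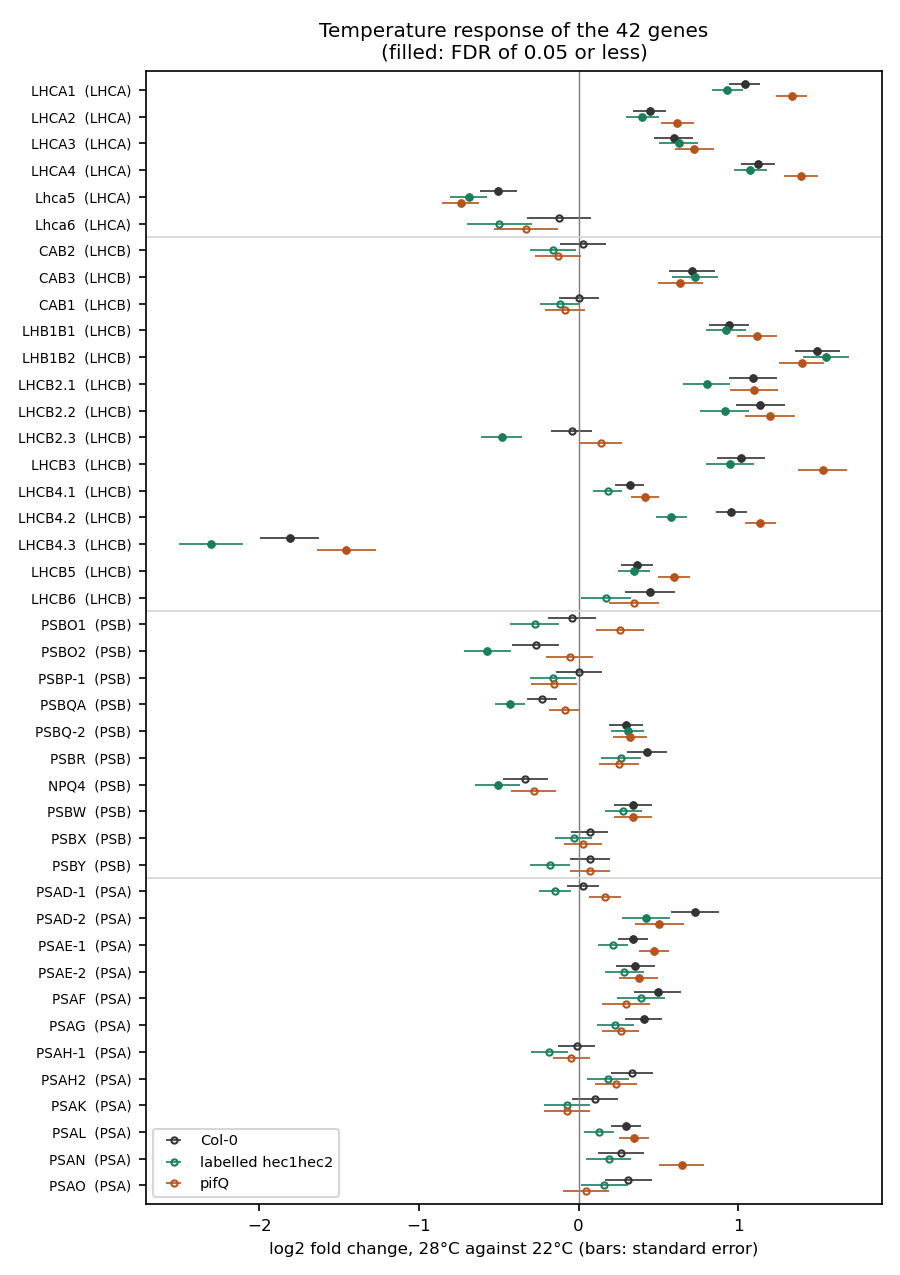
Log2 fold change at 28°C against 22°C (horizontal axis) of each of the 42 genes (vertical axis, class in brackets) in Col-0, the libraries labelled hec1hec2 and pifQ, with bars for the standard error and filled points for an FDR of 0.05 or less. LHCA1 to LHCA4 and most LHCB genes lie to the right of 0 in all 3 genotypes, LHCB4.3 lies far to the left at -1.81, -2.30 and -1.45, and the PSB genes scatter around 0.

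Among the genes of the photosystem I antenna, LHCA1 to LHCA4, which encode the 4 proteins of its main belt, all rose in Col-0. LHCA4 (AT3G47470) was measured at 4042, 3976 and 3443 CPM (counts scaled to a common library size, after adjustment by the TMM method) at 22°C and at 8803, 8140 and 8040 CPM at 28°C. Every library at 28°C was above every library at 22°C, and the log2 fold change was 1.12 ± 0.10 (standard error, SE, FDR 1.58e-08). LHCA1 (AT3G54890) was at 3516, 3892 and 3520 CPM at 22°C and at 7500, 7326 and 7630 CPM at 28°C. These groups did not overlap either (log2 fold change 1.04 ± 0.10 SE, FDR 1.58e-08). LHCA3 (AT1G61520) went from 3876 ± 129 (SD, n = 3) to 5857 ± 272 CPM and LHCA2 (AT3G61470) from 5238 ± 204 to 7134 ± 344 CPM, with log2 fold changes of 0.60 and 0.45. Both rises were smaller than that of LHCA4 as estimates, and the differences between genes were not tested.

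Lhca5 (AT1G45474) and Lhca6 (AT1G19150) encode antenna-like proteins of low abundance that link photosystem I to the chloroplast NADH dehydrogenase-like complex, and neither rose. Lhca5 was at 191, 176 and 194 CPM at 22°C and at 139, 130 and 127 CPM at 28°C in Col-0. It fell by 0.50 ± 0.11 SE on the log2 scale (FDR 0.00191), with no overlap between the groups. Lhca6 was at 153 ± 16.5 CPM (SD, n = 3) and 141 ± 35.9 CPM, which overlapped (log2 fold change -0.12, FDR 0.699). In each Col-0 library both lay far below the 4 main LHCA genes.

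The LHCB genes held the highest and the lowest log2 fold changes of the 42. LHB1B2 (AT2G34420) was at 5711, 5710 and 4476 CPM in the Col-0 libraries at 22°C and at 16329, 14151 and 14281 CPM at 28°C. All values at 28°C were above all values at 22°C, and LHB1B2 rose by 1.49 ± 0.14 SE on the log2 scale (2.82-fold, FDR 2.04e-08). LHCB4.3 (AT2G40100), the third gene for the monomeric antenna protein CP29 that is expressed far below its 2 paralogs, was at 62.2, 58.2 and 57.3 CPM at 22°C. At 28°C it was at 21.3, 12.4 and 16.4 CPM. The groups did not overlap, and it fell by 1.81 ± 0.19 SE on the log2 scale (0.285 times the level at 22°C, FDR 6.92e-08).

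The other genes of the trimeric antenna complex LHCII fell into a rising and a level set in Col-0. LHCB2.1 (AT2G05100, 1.09), LHCB2.2 (AT2G05070, 1.14) and LHCB3 (AT5G54270, 1.02), for the LHCB2 and LHCB3 proteins of the trimer, rose by at least 2-fold. LHCB2.1 went from 1172 ± 191 to 2500 ± 322 CPM (SD, n = 3), LHCB2.2 from 926 ± 184 to 2037 ± 165 CPM and LHCB3 from 2952 ± 289 to 5979 ± 321 CPM. LHB1B1 (AT2G34430, 0.94) and CAB3 (AT1G29910, 0.71), both LHCB1 genes, rose by less, from 3419 ± 372 to 6573 ± 173 CPM (SD, n = 3) and from 4248 ± 353 to 6944 ± 237 CPM. CAB1 (AT1G29930) was at 8778, 8572 and 8222 CPM at 22°C and at 8141, 9390 and 8058 CPM at 28°C. Its groups overlapped, and its log2 fold change was 0.00 with a 95% interval from -0.24 to 0.24. CAB2 (AT1G29920) stayed at 3608 ± 291 and 3678 ± 271 CPM (0.03, interval -0.25 to 0.31), and LHCB2.3 (AT3G27690) at 1450 ± 136 and 1407 ± 180 CPM (-0.04, interval -0.30 to 0.21).

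The minor antenna proteins CP29, CP26 and CP24 connect the trimers to the photosystem II core. Of their genes, LHCB4.2 (AT3G08940) rose from 1034 ± 82.5 to 2006 ± 49.1 CPM (SD, n = 3) in Col-0, a log2 fold change of 0.96. LHCB4.1 (AT5G01530, 0.32), LHCB5 (AT4G10340, 0.36) and LHCB6 (AT1G15820, 0.45) also rose, from 3335 to 4163, from 3523 to 4532 and from 3821 to 5207 mean CPM. LHCB4.3 was the single exception in the direction of change among the LHCB genes that passed the test in Col-0.

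The 5 LHCB1 genes code for nearly the same protein, so the split of reads between them depends on how the study's counting assigned reads that match several copies. Summed over the 5 genes, LHCB1 was at 25811, 26531 and 22951 CPM in Col-0 at 22°C and at 41805, 40863 and 39267 CPM at 28°C. The sums did not overlap between temperatures, and their ratio was 1.62 in Col-0, 1.54 in the libraries labelled hec1hec2 and 1.52 in pifQ. The pifQ ratio was 1.78 without its second library at 22°C, so that pifQ moved from the lowest to the highest of the 3 ratios. Within that sum the make-up differed. LHB1B2 made up 21.1% ± 1.37 (SD, n = 3) of LHCB1 counts at 22°C in Col-0 and 36.7% ± 2.23 at 28°C. CAB1 went the other way, from 34.0% ± 1.76 to 21.0% ± 1.80, and CAB2 from 14.4% ± 0.613 to 9.06% ± 0.830. CAB3 held 16.9% and 17.1%, and LHB1B1 13.6% and 16.2%.

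The ratio of LHB1B2 to CAB1, a pair picked after its values were seen, was 0.651, 0.666 and 0.544 in the Col-0 libraries at 22°C and 2.01, 1.51 and 1.77 at 28°C. It was between 0.473 and 0.668 in the 6 mutant libraries at 22°C and between 1.43 and 1.74 in the 6 at 28°C, so that LHB1B2 was below CAB1 in every library at 22°C and above it in every library at 28°C. In the RefSeq annotation LHB1B2 and LHB1B1 are neighbours on chromosome 2 that point away from each other, with 1038 bases and 0 genes between them. CAB2 and CAB1 are arranged in the same way on chromosome 1, with 1915 bases and 0 genes between them. Both genes of the first pair rose and neither gene of the second pair changed in any of the 3 genotypes.

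**Figure D2:**
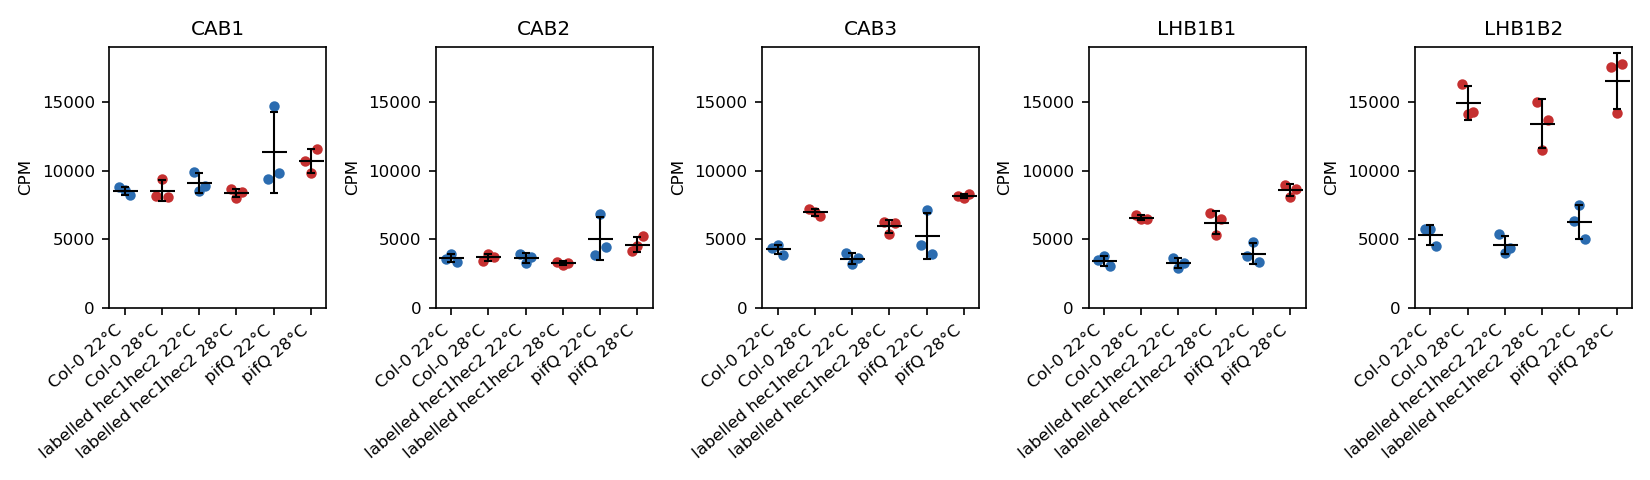
Level in CPM (vertical axis) of the 5 LHCB1 genes in every library, with 3 libraries in each of the 6 groups (horizontal axis), the mean as a horizontal mark and the SD as a bar, in blue at 22°C and in red at 28°C. LHB1B2 rises from 4018 to 7501 CPM at 22°C to 11486 to 17786 CPM at 28°C, while CAB1 and CAB2 overlap between temperatures and have 1 high point, the second pifQ library at 22°C.

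The photosystem II core genes moved little in Col-0. PSBR (AT1G79040), a small subunit next to the oxygen-evolving complex, was at 10026, 9245 and 9169 CPM at 22°C and at 13711, 12334 and 12248 CPM at 28°C. The groups did not overlap, and PSBR rose by 0.43 ± 0.12 SE on the log2 scale (FDR 0.0122), the highest value of its class. PSBW (AT2G30570), another small membrane subunit (0.34), and PSBQ-2 (AT4G05180), one of 2 genes for the extrinsic PSBQ protein that stabilises the oxygen-evolving complex (0.30), were the other 2 that rose. The remaining 7 did not pass the test. PSBO1 (AT5G66570) stayed at 6106 ± 69.9 and 5935 ± 235 CPM (SD, n = 3) and PSBP-1 (AT1G06680) at 4342 ± 116 and 4351 ± 109 CPM, and both encode extrinsic proteins of the oxygen-evolving complex. PSBX (AT2G06520) and PSBY (AT1G67740), 2 small membrane subunits, had mean levels of 2718 and 2850 CPM and of 1110 and 1165 CPM. PSBO2 (AT3G50820, 1124 and 933 mean CPM), PSBQA (AT4G21280, 1338 and 1142) and NPQ4 (AT1G44575, 1583 and 1255) had negative estimates of -0.27, -0.23 and -0.33. NPQ4 encodes PSBS, which is needed for the rapid dissipation of excess light energy as heat.

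Among the photosystem I core genes, 6 of 12 rose in Col-0 and 0 fell. PSAD-2 (AT1G03130), one of 2 genes for the PSAD subunit where ferredoxin docks, had the highest estimate. It was at 716, 807 and 701 CPM at 22°C and at 1279, 1230 and 1176 CPM at 28°C, with no overlap (0.73 ± 0.15 SE, FDR 0.000839). PSAF (AT1G31330), which binds plastocyanin (4940 to 6957 mean CPM, 0.49), PSAG (AT1G55670, 4419 to 5858, 0.41), the PSAE genes PSAE-2 (AT2G20260, 654 to 837, 0.36) and PSAE-1 (AT4G28750, 3069 to 3892, 0.34), and PSAL (AT4G12800, 3368 to 4133, 0.30) also rose. The other 6 did not pass the test: PSAH2 (AT1G52230, 1146 and 1446 mean CPM), PSAO (AT1G08380, 5565 and 6903), PSAN (AT5G64040, 2113 and 2540), PSAK (AT1G30380, 3931 and 4220), PSAD-1 (AT4G02770, 2593 and 2646) and PSAH-1 (AT3G16140, 904 and 896). PSAH, PSAL and PSAO lie on the side of photosystem I where LHCII can dock, and PSAN lies on the lumenal side. Without the second pifQ library at 22°C, which enters the estimate of the spread, 30 of the 42 genes changed in Col-0 where 33.7% of all genes did, and PSAH2, PSAN and PSAO then rose while PSBQA and NPQ4 fell. By class, the count then went from 3 to 5 PSB genes and from 6 to 9 PSA genes.

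The same comparison was made in both mutants. In the libraries labelled hec1hec2, 20 of the 42 genes changed, 14 upwards and 6 downwards, beside 29.2% of all genes tested (14.9% upwards and 14.3% downwards). In pifQ, 22 changed, 20 upwards and 2 downwards, beside 27.4% of all genes (13.1% and 14.3%). The 2-fold mark was reached by 3 genes in the libraries labelled hec1hec2, namely LHCA4 and LHB1B2 upwards and LHCB4.3 downwards, beside 8.93% of all genes (4.81% upwards and 4.12% downwards). It was reached by 9 genes in pifQ, beside 7.82% of all genes (4.1% upwards and 3.72% downwards). LHCA1, LHCA4, LHB1B1, LHB1B2, LHCB2.1, LHCB2.2, LHCB3 and LHCB4.2 did so upwards and LHCB4.3 downwards.

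A total of 14 genes rose in all 3 genotypes and 2 fell in all 3, beside 6.83% and 7.79% of all genes tested. The 14 were LHCA1 to LHCA4, LHB1B1, LHB1B2, CAB3, LHCB2.1, LHCB2.2, LHCB3, LHCB4.2, LHCB5, PSAD-2 and PSBQ-2, and the 2 were Lhca5 and LHCB4.3. Another 12 passed the test in none, beside 57% of all genes: CAB1, CAB2, Lhca6, PSAD-1, PSAH-1, PSAH2, PSAK, PSAO, PSBO1, PSBP-1, PSBX and PSBY. When the second pifQ library at 22°C was left out, 20 genes rose in all 3 (8.82% of all genes), 2 fell in all 3 (9.79%) and 8 passed in none (50.8%). The estimate was positive in all 3 genotypes for 26 genes, negative in all 3 for 7 and of mixed sign for 9. Of the 14 genes that rose throughout with all libraries, 8 held CCAATC in the upstream window, as did 3 of the other 28. For the G-box these counts were 2 and 6, for the I-box 4 and 5 and for the PBE-box 4 and 0. The PBE-box was in only 4 of the 42 windows (9.52%, against 11.1% of all protein-coding genes), and 10 of the 14 genes lacked it. Most of the 14 were antenna genes. CCAATC was in 50.0% of the LHCA and of the LHCB windows, against 10.0% for PSB and 0 for PSA. Over all classes together, the counts for CCAATC therefore cannot be told apart from a difference between classes. Among LHCB genes holding CCAATC, LHB1B2, LHCB2.1, LHCB2.2 and LHCB4.2 rose throughout, and CAB1, LHCB2.3 and LHCB4.1 did not. Among those lacking it, LHB1B1, CAB3, LHCB3 and LHCB5 rose throughout, and CAB2, LHCB4.3 and LHCB6 did not. So the LHCB genes split alike with and without it. All LHCA genes holding it rose throughout (LHCA1, LHCA3 and LHCA4), and of those lacking it only LHCA2 did. A difference within classes was not tested.

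LHB1B2 showed a similar range of values in each genotype. In the libraries labelled hec1hec2 it was at 5341, 4018 and 4381 CPM at 22°C and at 15007, 11486 and 13712 CPM at 28°C (1.55 ± 0.14 SE, FDR 6.87e-09). In pifQ it was at 6288, 7501 and 5033 CPM and at 17572, 14195 and 17786 CPM (1.40 ± 0.14 SE, FDR 5.89e-08, and 1.54 without the second pifQ library at 22°C). The temperature groups did not overlap in either mutant. LHCA4 was at 4131, 3380 and 3689 CPM and at 8196, 7011 and 8392 CPM in the libraries labelled hec1hec2 (1.08 ± 0.10 SE, FDR 1.78e-08). In pifQ it was at 3859, 3671 and 3507 CPM and at 10353, 8534 and 10097 CPM (1.39 ± 0.11 SE, FDR 6.28e-10). The 28°C libraries were again all above the 22°C libraries.

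The 2 genes that fell did so in each genotype. LHCB4.3 was at 61.0, 36.8 and 41.0 CPM at 22°C and at 9.61, 10.3 and 8.31 CPM at 28°C in the libraries labelled hec1hec2 (-2.30 ± 0.20 SE, FDR 3.35e-09). In pifQ it was at 54.8, 47.0 and 46.1 CPM and at 19.9, 15.9 and 18.2 CPM (-1.45 ± 0.18 SE, FDR 1.52e-06). Neither mutant had a library at 28°C within the range at 22°C. Lhca5 was at 215, 188 and 201 CPM and at 133, 117 and 125 CPM in the libraries labelled hec1hec2 (-0.69 ± 0.11 SE, FDR 4.86e-05). In pifQ, Lhca5 was at 197, 245 and 200 CPM and at 140, 115 and 130 CPM (-0.74 ± 0.11 SE, FDR 2.56e-05, and -0.63 without the second pifQ library at 22°C). Its groups were separate as well.

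Fewer core genes than antenna genes passed the test in the mutants. The libraries labelled hec1hec2 had 4 PSB genes that changed and 1 PSA gene, where 29.2% of all genes did. These counts without the second pifQ library at 22°C were 7, of which 3 rose, and 5, all of which rose, beside 36.7% of all genes. PSBO2, the less abundant of 2 genes for the manganese-stabilising protein, was at 1540, 1096 and 1070 CPM at 22°C and at 892, 759 and 843 CPM at 28°C, and it fell by 0.57 ± 0.15 SE on the log2 scale without overlap (FDR 0.00444). NPQ4 (-0.51), PSBQA (-0.43) and the antenna gene LHCB2.3 (-0.48) fell as well. PSBQ-2 was at 818, 666 and 766 CPM and at 958, 881 and 943 CPM, and it rose by 0.31 ± 0.11 SE (FDR 0.0299). PSAD-2 was at 947, 826 and 874 CPM and at 1241, 1110 and 1195 CPM, and it rose by 0.42 ± 0.15 SE (FDR 0.0374). Neither PSBQ-2 nor PSAD-2 overlapped between temperatures. Whether PSBO2, NPQ4, PSBQA or LHCB2.3 responded differently from Col-0 was tested as an interaction, which none of them passed.

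In pifQ, 2 PSB and 5 PSA genes rose, and without the library that stood apart 3 PSB and 9 PSA genes did. PSAN was at 1944, 1111 and 2044 CPM at 22°C and at 2533, 2662 and 2775 CPM at 28°C (0.64 ± 0.14 SE, FDR 0.00133). Its lowest value came from the second library, and without that library the log2 fold change was 0.41 (FDR 0.000473). LHCB3 was at 2605, 1441 and 2656 CPM and at 6178, 6246 and 6928 CPM (1.53 ± 0.15 SE, FDR 5.29e-08), and at 1.29 without that library (FDR 8.00e-12). PSBW was at 5234, 6589 and 4432 CPM and at 7097, 6376 and 7088 CPM (0.34 ± 0.12 SE, FDR 0.0345). In this gene the second library was high at 22°C and overlapped the 28°C group. Without that library 28 of the 42 genes changed in pifQ, 26 of them upwards, beside 28.2% of all genes, and 28 in the libraries labelled hec1hec2, 20 of them upwards, beside 36.7% of all genes.

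Scaling moved the split in the libraries labelled hec1hec2. It was 14 upwards and 6 downwards with TMM, 12 and 7 with the relative log expression method, and 22 and 6 with library totals alone. Under library totals the median over all genes in that comparison moved from 0.05 to 0.17, and that of the 42 genes from 0.19 to 0.30. The median of the PSB genes was negative under each of these scalings (-0.17, -0.20 and -0.05), while the medians of the LHCA, LHCB and PSA genes were positive under each.

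Summed CPM per class gave the same order in each genotype without any test over genes. In Col-0 the LHCA sum was 16925, 17692 and 16132 CPM at 22°C and 30307, 28501 and 28424 CPM at 28°C, a ratio of means of 1.72. The LHCB sum was 43977, 45978 and 40156 CPM and 71255, 68115 and 66109 CPM, a ratio of 1.58. Neither antenna class overlapped between temperatures in any genotype. The PSA sum was 32707, 34622 and 33000 CPM and 43174, 42032 and 39457 CPM in Col-0, a ratio of 1.24. The PSB sum was 34376, 33351 and 32880 CPM and 39431, 37337 and 36085 CPM, a ratio of 1.12. Both core sums were separate between temperatures in Col-0 and overlapped in both mutants, in pifQ through the second library at 22°C alone. Its sums were 40536 CPM for PSB and 46139 CPM for PSA. The other 2 pifQ libraries at 22°C were at 30790 and 34880 CPM for PSB, below the 37369 to 40548 CPM at 28°C, and at 31878 and 33906 CPM for PSA, below 42485 to 45891 CPM.

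The LHCA ratio was 1.66 in the libraries labelled hec1hec2 and 1.99 in pifQ, and the LHCB ratio was 1.45 and 1.58. The PSA ratio was 1.12 and 1.17, and the PSB ratio 1.00 and 1.11. Without the second pifQ library at 22°C the pifQ ratios were 2.07 for LHCA, 1.77 for LHCB, 1.33 for PSA and 1.20 for PSB. The PSB ratio in the libraries labelled hec1hec2 was 0.980 under the relative log expression method and 1.09 under library totals.

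Set against the core of the same photosystem within a library, a ratio that no scaling affects, antenna transcripts were higher at 28°C. The ratio of summed LHCB to summed PSB counts was 1.28, 1.38 and 1.22 in Col-0 at 22°C and 1.81, 1.82 and 1.83 at 28°C. In the libraries labelled hec1hec2 it ranged from 1.21 to 1.29 and from 1.75 to 1.81, and in pifQ from 1.30 to 1.49 and from 1.94 to 2.08. No library at 28°C fell in the range of any library at 22°C. The ratio of LHCA to PSA counts was 0.517, 0.511 and 0.489 in Col-0 at 22°C and 0.702, 0.678 and 0.720 at 28°C. It ranged from 0.439 to 0.450 and from 0.634 to 0.671 in the libraries labelled hec1hec2, and from 0.396 to 0.510 and from 0.717 to 0.814 in pifQ, again without overlap.

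**Figure D3:**
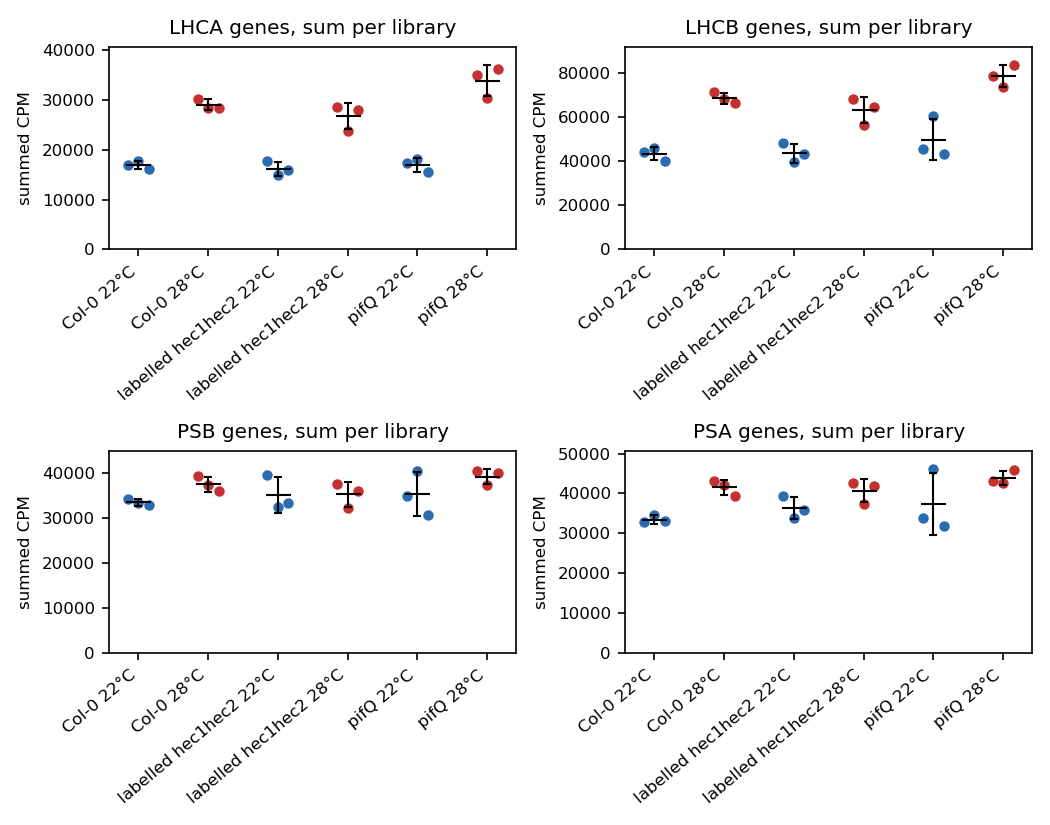
Summed CPM (vertical axes starting at 0) of the LHCA, LHCB, PSB and PSA genes in each library of the 6 groups (horizontal axes), with the mean as a horizontal mark and the SD as a bar, in blue at 22°C and in red at 28°C. The LHCA and LHCB sums at 28°C lie above all those at 22°C within each genotype, whereas the PSB and PSA sums overlap in both mutants, in pifQ only through its second library at 22°C (40536 and 46139 CPM).

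Several subunits are encoded by more than one of the genes, and the ratio of paralogs within a library was compared between temperatures with an exact two-sided permutation test that kept genotypes apart, with p-values adjusted over the 8 pairs. LHCB4.3 to LHCB4.1 had the largest difference in mean log2 ratio, -2.17 (adjusted p = 0.0005, exact permutation test). LHCB2.3 to LHCB2.1 differed by -1.14, LHCB4.1 to LHCB4.2 by -0.59 and PSBQ1 (PSBQA) to PSBQ2 (PSBQ-2) by -0.56 (adjusted p = 0.0005 each, exact permutation test). The unadjusted p of these 4 pairs was 0.00025, the smallest that the 8000 arrangements allow. In each of these pairs the temperature groups were separate in all 3 genotypes.

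The log2 ratio of LHCB4.1 to LHCB4.2 was 1.70, 1.63 and 1.75 in Col-0 at 22°C and 1.05, 1.07 and 1.05 at 28°C. LHCB2.3 exceeded LHCB2.1 at 22°C in Col-0, with log2 ratios of 0.13, 0.39 and 0.43, and was below it at 28°C, at -0.83, -0.87 and -0.78. The same reversal was seen in the libraries labelled hec1hec2 (means of 0.55 and -0.74) and in pifQ (0.23 and -0.75), with 1 exception, the second pifQ library at 22°C, at -0.08. The 3 LHCB2 genes encode almost the same protein.

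PSAD-1 to PSAD-2 differed by -0.56 (adjusted p = 0.0016, exact permutation test) and PSAH-1 to PSAH2 by -0.34 (adjusted p = 0.00533, exact permutation test), so the second gene of each pair made up more of the counts at 28°C. Without single libraries these differences ranged from -0.65 to -0.51 and from -0.41 to -0.29. The second pifQ library at 22°C had a log2 ratio of PSAD-1 to PSAD-2 of 0.87. That was below the pifQ libraries at 28°C, at 1.08, 1.02 and 0.96. PSAE-1 to PSAE-2 did not pass the test (-0.00, adjusted p = 0.958, exact permutation test). PSBO1 to PSBO2 differed in the other direction by 0.30 (adjusted p = 0.0249, exact permutation test). That call rested on single libraries. Without the second pifQ library at 22°C the difference was 0.20 (adjusted p = 0.0649, exact permutation test), and it was also lost without the first Col-0 library at 22°C, the third Col-0 library at 28°C, or the second or the third pifQ library at 28°C.

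**Figure D4:**
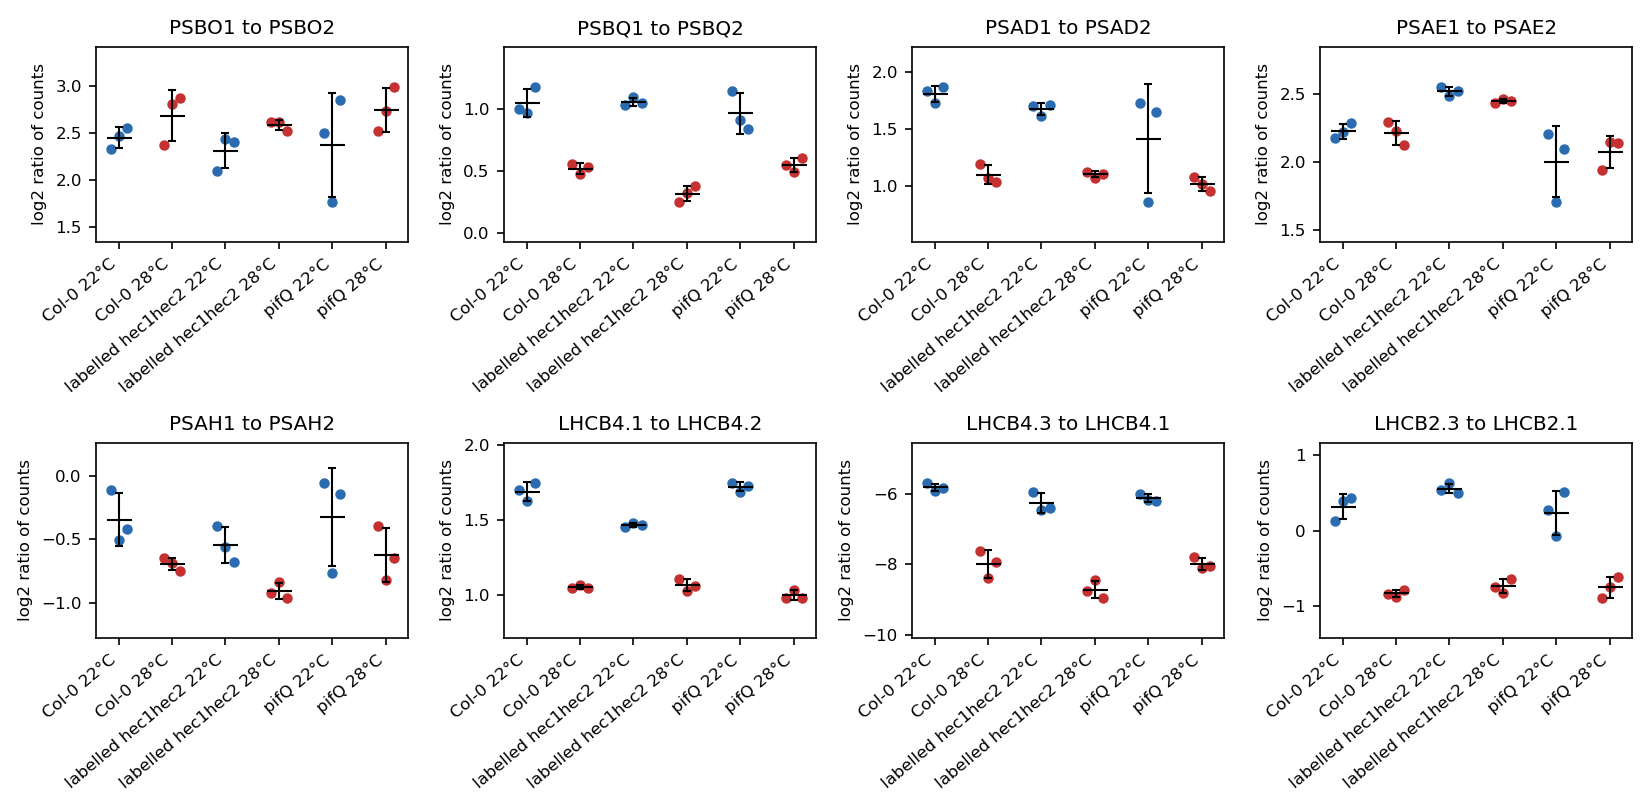
Log2 ratio of the counts of 2 paralogs (vertical axes, which do not start at 0) in each library of the 6 groups (horizontal axes), with the mean as a horizontal mark and the SD as a bar, in blue at 22°C and in red at 28°C. The ratios LHCB4.1 to LHCB4.2, LHCB4.3 to LHCB4.1, LHCB2.3 to LHCB2.1 and PSBQ1 to PSBQ2 are lower at 28°C in each genotype, and PSAE1 to PSAE2 is not. The second pifQ library at 22°C stands off in PSBO1 to PSBO2, PSAD1 to PSAD2, PSAE1 to PSAE2 and PSAH1 to PSAH2.

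The mutants were then compared with Col-0 at each temperature, and the temperature response of each mutant with that of Col-0. All of these contrasts share the Col-0 libraries. With edgeR's quasi-likelihood test, 0 of the 42 genes differed between the libraries labelled hec1hec2 and Col-0 at 22°C or at 28°C, beside 1.7% and 1.44% of all genes. At an unadjusted p under 0.05 there were 4 and 3 genes, and DESeq2 called 1 at each temperature, LHCB4.2 and LHCB4.3. In pifQ against Col-0, 0 of the 42 differed at 22°C or 28°C, beside 0.0553% and 1.47% of all genes, with 8 and 5 genes at an unadjusted p under 0.05. DESeq2 called 0 at 22°C and 1 at 28°C, LHCA1. Neither interaction called any of the 42, beside 0.0166% of all genes for the libraries labelled hec1hec2 and 0.0608% for pifQ. Each had 2 genes at an unadjusted p under 0.05 and 0 by DESeq2.

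LHCB4.3 came nearest to the threshold. At 28°C it was at 21.3, 12.4 and 16.4 CPM in Col-0 and at 9.61, 10.3 and 8.31 CPM in the libraries labelled hec1hec2, and these groups did not overlap. The log2 fold change was -0.84 (95% interval -1.27 to -0.41, FDR 0.0508). Without the second pifQ library at 22°C, which enters only through the shared spread, the FDR was 0.0155. LHCB4.2 at 22°C was higher in the libraries labelled hec1hec2, at 1370, 1154 and 1264 CPM, than in Col-0, at 992, 1129 and 981 CPM, by 0.29 (95% interval 0.10 to 0.48, FDR 0.177), and the FDR was 0.0405 without that pifQ library. Each was then the 1 gene of the 42 that differed, beside 3.83% of all genes at 28°C and 3.52% at 22°C.

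In pifQ at 28°C, 35 of the 42 estimates were positive. The median was 0.09, beside 0.00 over all genes, and the estimates ranged from -0.11 to 0.38. LHB1B1 had the highest, at 8950, 8108 and 8624 CPM against 6770, 6443 and 6506 CPM in Col-0, a log2 fold change of 0.38 (95% interval 0.14 to 0.62, FDR 0.153) with separate groups. Without the second pifQ library at 22°C, 4 genes passed the test and were higher in pifQ at 28°C, beside 4.08% of all genes. They were LHB1B1 (0.38, FDR 0.0129), CAB1 (0.32, FDR 0.0121), CAB2 (0.32, FDR 0.0311) and LHCA1 (0.31, FDR 0.0239), all of them antenna genes. The call for these genes in pifQ at 28°C therefore differs with that library, while the estimates stay the same to 2 decimals.

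In the libraries labelled hec1hec2 at 28°C, 34 of the 42 estimates were negative, with a median of -0.08, beside -0.01 over all genes. The temperature response was below that of Col-0 for 38 of the 42 as an estimate. The median interaction was -0.16 with TMM, -0.17 with relative log expression scaling and -0.08 with library totals. Over all genes it was 0.002, -0.004 and 0.084 in that order, so the all-gene median moved under library totals as well. Signs were not counted over all genes. The interaction estimates ranged from -0.49 to 0.06 and their standard errors reached 0.28. LHCB4.2 had the lowest unadjusted p (0.0103 by edgeR's quasi-likelihood test, FDR 1.00), at a difference in log2 response of -0.38. In pifQ at 22°C the median estimate was 0.03 and became -0.06 without the second library of that group, beside 0.01 and 0.00 over all genes. Without that library 0 of the 42 were called, where 0.0653% of all genes were. The pifQ temperature response exceeded that of Col-0 as an estimate for 25 of the 42 genes with all libraries and for 40 without that library. The medians were 0.02 and 0.16, beside -0.012 and -0.003 over all genes. Either way 0 of the 42 were called (0.158% of all genes without that library, and 0.207% for the libraries labelled hec1hec2).

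**Figure D5:**
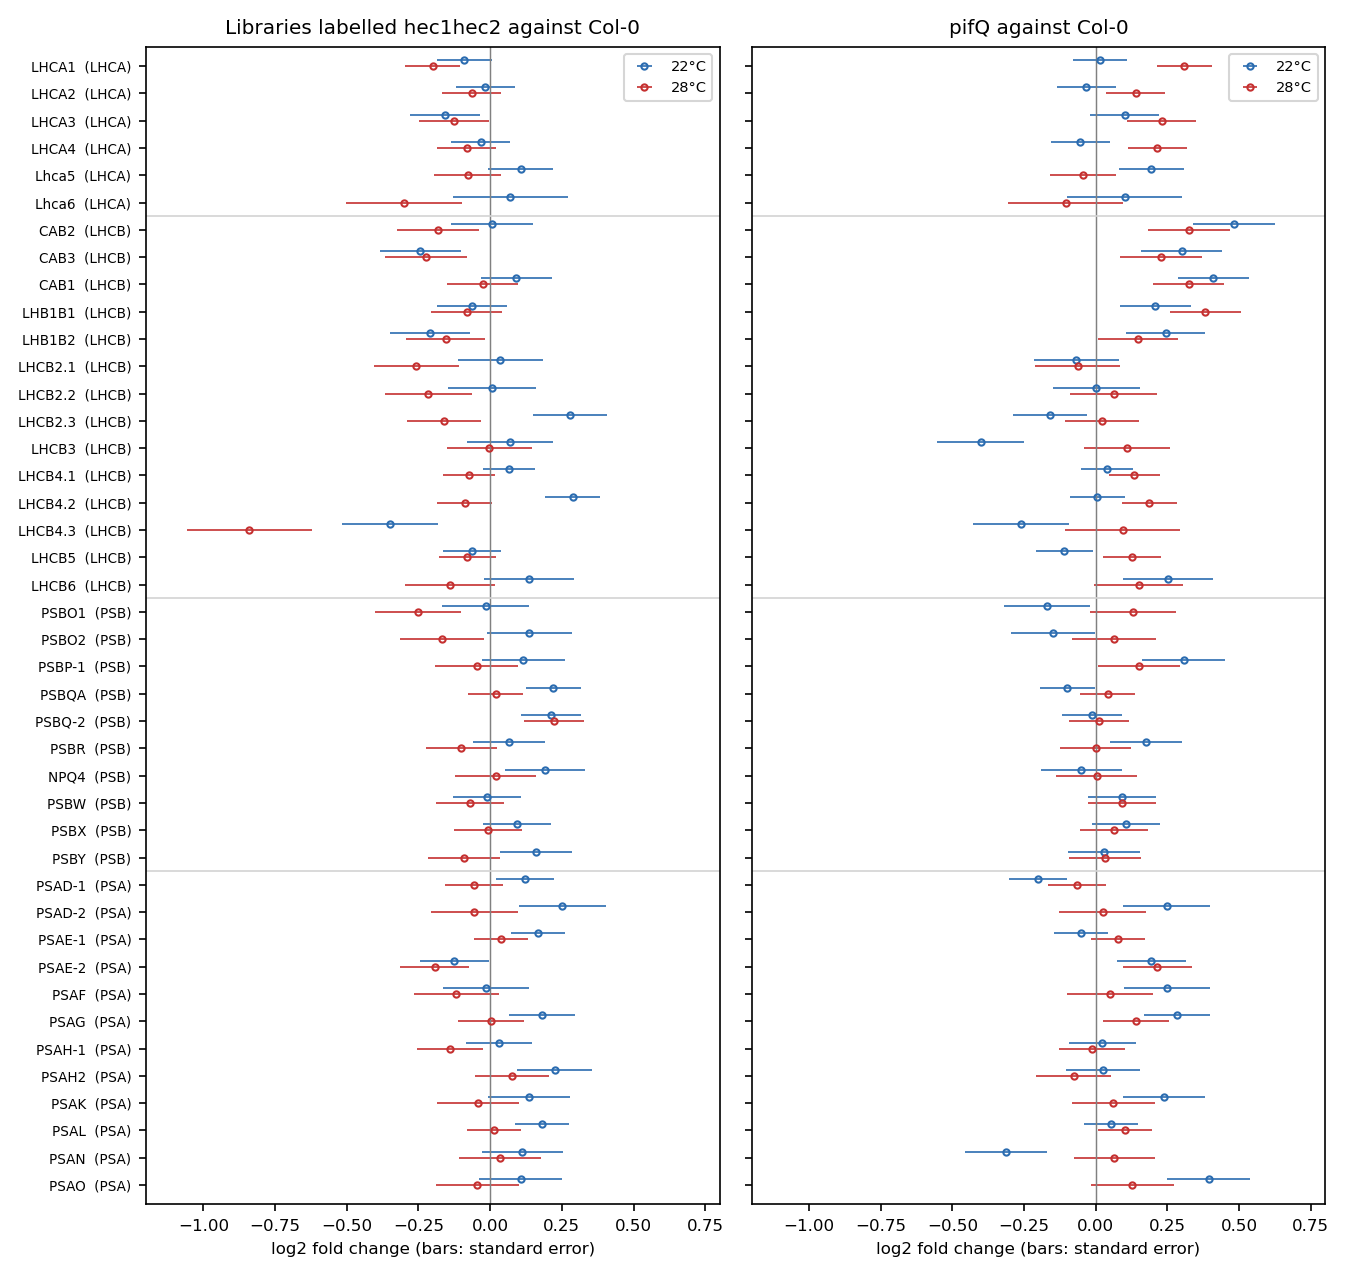
Log2 fold change against Col-0 (horizontal axes) of each of the 42 genes (vertical axis, class in brackets) for the libraries labelled hec1hec2 (left) and pifQ (right) at 22°C in blue and 28°C in red, with bars for the standard error. All points are open because 0 of the 42 genes passed an FDR of 0.05, and LHCB4.3 in the libraries labelled hec1hec2 at 28°C lies farthest from 0, at -0.84.

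Other genes of the photosynthetic apparatus were counted in the same way, and their counts stand beside 13.2% of all genes upwards and 12.8% downwards in Col-0, 14.9% and 14.3% in the libraries labelled hec1hec2, and 13.1% and 14.3% in pifQ. Of 14 genes for electron transfer and ATP synthase, 1 rose and 3 fell in Col-0, 1 and 6 in the libraries labelled hec1hec2, and 3 and 3 in pifQ. The median was -0.09, -0.27 and -0.08 in that order, beside 0.04, 0.05 and 0.00 over all genes. PGRL1B, which takes part in cyclic electron flow around photosystem I, rose in each. Its log2 fold change was 1.42 in Col-0, 1.29 in the libraries labelled hec1hec2 and more than either in pifQ. FED A, the main leaf ferredoxin, fell in each (-0.59, -0.74 and -0.69). In pifQ at 22°C FED A was at 3663, 4813 and 3449 CPM, with the high value from the library that stood apart, which the estimate includes. Of 12 genes for photosystem assembly, antenna import and phosphorylation, 0 rose and 5 fell in Col-0, 1 and 5 in the libraries labelled hec1hec2, and 1 and 4 in pifQ, with medians of -0.05, -0.29 and -0.09. PSB28, an assembly factor of photosystem II, fell by 1.25, 1.52 and 1.00 on the log2 scale. Of 5 regulators of photosynthesis genes, 2 rose and 2 fell in Col-0, 1 and 1 in the libraries labelled hec1hec2, and 1 and 0 in pifQ, with medians of -0.16, -0.41 and -0.09. GLK2, a transcription factor that promotes expression of antenna genes, rose in each (0.86, 0.47 and 0.90). In pifQ at 22°C GLK2 was at 81.7, 47.7 and 94.5 CPM, with the low value from the library that stood apart, which the estimate includes. In Col-0, GPRI1 also had a higher mean at 28°C, at 34.89 CPM at 22°C and 49.08 CPM at 28°C. HY5 (30.69 and 17.45 mean CPM), CGA1 (12.03 and 6.74) and GNC (37.58 and 33.68) had lower means at 28°C in Col-0. The part of these regulators in the changes of the antenna genes was not tested.

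Markers of tissue make-up were summed in the same libraries. The 6 green-tissue markers outside the photosystems, RBCS genes for the small subunit of Rubisco with RCA and CA1, summed to 39106 to 41594 CPM in Col-0 at 22°C and to 24370 to 27277 CPM at 28°C. Of these 6, 0 rose and 4 fell in Col-0, 0 and 6 in the libraries labelled hec1hec2, and 0 and 3 in pifQ, with medians of -0.33, -0.56 and -0.28. Their sums at 28°C were 0.649, 0.549 and 0.668 times those at 22°C, with no overlap in any genotype, so the rise of the antenna genes went with lower levels of these markers. The pifQ ratio was 0.694 without its second library at 22°C, again with no overlap. That library was high in RBCS1A (30263 CPM, the others 23552 and 23165) and low in RBCS1B (797 CPM, the others 1440 and 1831). The pifQ calls and median of these markers include it. RBCS1A weighed most in the sums, at 22287 of 40210 mean CPM at 22°C and 12257 of 26093 at 28°C in Col-0. RCA went from 6280 to 5072 and CA1 from 4935 to 4090 mean CPM in Col-0. The 10 root markers, of which 8 were tested and RHD6 and NRT2:1 were too low, summed to 2734 to 2964 CPM at 22°C and 2242 to 2474 CPM at 28°C in Col-0. PYK10 made up most of these sums, at 2566 of 2847 mean CPM at 22°C and 2148 of 2376 at 28°C. In Col-0, AT5G47450, CASP1 and CASP2 had higher means at 28°C, and BGLU21, BGLU22, EXPA7 and SHV2 had lower means. The root-marker sums had ratios of 0.835, 0.974 and 0.902, with overlap in both mutants. Without the second pifQ library at 22°C the pifQ ratio was 0.888, also with overlap. Of the root markers, 1 rose and 3 fell in Col-0 and 1 and 1 in each mutant, with medians of -0.25, -0.03 and -0.35. The part of tissue make-up in the changes of the photosystem and antenna genes was not tested.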

How the data were processed

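Whole-seedling RNA was measured by 3′ Tag-Seq in 18 libraries. The authors examined reads with FastQC, aligned them to TAIR10 with Bowtie2 and TopHat, and deposited raw counts per gene from HTSeq, with no normalization. The strand setting and the handling of reads that match several genes are not given in the sources used here, so near-identical copies (LHCB1, LHCB2) are uncertain. Groups came from the labels and column names.

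From the counts, edgeR 4.0.16 in R 4.3.3 was run with TMM scaling, filterByExpr and a single quasi-likelihood model of the 6 groups, with Benjamini-Hochberg adjustment over 18078 genes, and standard errors were taken from the F statistic. Genes with an FDR of 0.05 or less were called changed, where the study also required 2-fold. DESeq2 1.42.0, other scalings, other filters and omitted libraries were alternatives, and the model was tested on simulated data. Paralog log2 ratios were compared by exact permutation within genotypes.

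The members, gene lists and motifs were chosen with earlier results of these data known. All 42 genes were named with a level. In each comparison and class, the called gene with the largest positive and the called gene with the largest negative log2 fold change, where there was one, were given in every library, and every called gene that reached 2-fold was named. Intervals at 95% are normal approximations from the standard error. All 42 loci were found in the RefSeq annotation of TAIR10.1, which was used for symbols, gene order and the upstream windows. No molecular identifiers are described, so counting precision is that of reads, and the floor of 3 counts was reached by none of the 42 genes.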

Additional observations from a re-analysis of the deposited data

How the results depend on the processing

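The 67 calls of single genes between temperatures kept their direction in every alternative, and 44 of them kept an FDR of 0.05 or less in each, whereas 74 of the 968 alternative values did not pass the threshold. With the 2-fold requirement the counts were 7 in Col-0, 3 in the libraries labelled hec1hec2 and 9 in pifQ. Without single libraries the counts at an FDR of 0.05 or less, with no 2-fold requirement, ranged from 18 to 30, from 17 to 28 and from 19 to 28. The upper ends came without the second pifQ library at 22°C, an omission chosen after seeing the data for the comparisons that do not use it. For the libraries labelled hec1hec2 against Col-0 at 22°C the count was 1 with DESeq2 and 0 to 1 without single libraries. At 28°C it was 1 with no filter, 1 with a filter of 1 CPM in 3 libraries, 1 with only the libraries compared, 1 with DESeq2, and 0 to 1 without single libraries (the second Col-0 library at 28°C or the second pifQ library at 22°C gave 1). For pifQ against Col-0 it was 1 with no filter and 0 to 2 without single libraries at 22°C (2 without the first pifQ library), and at 28°C 1 with no filter, 1 with DESeq2, 4 with only the libraries compared and 0 to 4 without single libraries. Both interactions stayed at 0 without single libraries. The PSBO1 to PSBO2 difference ranged from 0.20 to 0.38 without single libraries. The cause was not tested.

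Replicate numbers are shared between groups but were not used to pair the libraries. Deviations of same-numbered libraries from their group means correlated between -0.04 and 0.18. Differently numbered libraries were not compared, so these values cannot show whether same-numbered libraries were grown or handled together. With the replicate block the counts between temperatures were 27, 22 and 22, and 1 gene differed between the libraries labelled hec1hec2 and Col-0 at 28°C.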
